A study of Caenorhabditis elegans with 4 samples.

Results

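The regions described here are the H3K36me3 peaks of chromosome X in Caenorhabditis elegans. They were taken as every row of the 2 deposited peak lists whose chromosome is X. Replicate 1 had 626 such peaks of 5973 in its list, and replicate 7 had 599 of 6223. The study used ChIP-seq, the sequencing of DNA recovered by chromatin immunoprecipitation, to map histone H3 trimethylated at lysine 36. The material was whole wild-type worms (strain N2) in the L3 stage of larval growth, with no mutant and no treatment. Both immunoprecipitations used the same Abcam antibody and lot, the labels pair each with an input DNA sample of its own, and each has a peak list of its own. Coordinates are in the WormBase build WS190. A whole L3 worm holds many somatic cell types and a small growing germ line, so a mark in few cells and a weak mark in many cells cannot be told apart.

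H3K36me3 is a mark of the bodies of transcribed genes. In this worm it is laid down by MET-1, which acts along with transcription, and by MES-4, which maintains the mark on genes that were expressed in the germ line of the parent. In germ cells MES-4 has been seen mainly on the autosomes, and on the X mainly at its left end. The X is also the target of the dosage compensation complex, which lowers transcription from both X chromosomes of the hermaphrodite, and most of it is quiet in germ cells. Genes are not named below because no gene positions of build WS190 were used here.

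The peaks of the X covered 1.61 Mb in replicate 1 and 1.62 Mb in replicate 7. The X is taken as 17.6 Mb long, up to the last peak end in either list, and the covered share was 9.12% in replicate 1 and 9.17% in replicate 7, a mean of 9.15% ± 0.0370 (SD, n = 2). All 5 autosomes had a larger share, from 11.2% (chromosome V) to 28.8% in replicate 1 and from 10.7% (chromosome V) to 27.0% in replicate 7. Peaks numbered 35.5 per Mb of X in replicate 1 and 33.98 in replicate 7, also below each autosome. Whether separate cultures were grown for the replicates is not stated in the labels, and the SD may reflect technical spread alone. The lists hold no read counts, and the depth of the libraries is unknown.

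Most X peaks were a few kilobases wide. Widths ran from 609 to 18386 bp in replicate 1, with a median of 2108.5 bp and quartiles of 1420 and 3208 bp. In replicate 7 they ran from 843 to 18466 bp, with a median of 2233 bp and quartiles of 1514.5 and 3364 bp. Of the width classes used, which differ in span, 2 to 5 kb held 289 peaks in replicate 1 and 293 in replicate 7. The narrower span of 1 to 2 kb held 252 and 240. The narrowest class, under 1 kb, held 44 peaks in replicate 1 and 19 in replicate 7. The cover was shared among many peaks: 50% of it lay in the 173 widest peaks of replicate 1 (27.6% of its X peaks) and in the 167 widest of replicate 7 (27.9%). The authors' score rose with width, with a Spearman's rho across X peaks of 0.88 in replicate 1 and 0.86 in replicate 7. Width may enter the score, and the files do not say how it was made.

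The peaks of the X stood far apart. From the end of a peak to the start of the next, replicate 1 had a median gap of 13123 bp and replicate 7 one of 13995 bp, the mean of the lists being 13559 bp ± 617 (SD, n = 2). On the autosomes the median gap ranged from 1902 to 4242 bp in replicate 1 and from 1780.5 to 4043 bp in replicate 7, so every autosome lay below the X in both lists. The short gaps that are common elsewhere were fewer on the X. Gaps of up to 1 kb made up 16.8% of X gaps in replicate 1 (105 of 625) and 14.7% in replicate 7 (88 of 598), against 29.5 to 38.9% and 30.3 to 40.8% on the autosomes. Gaps over 20 kb and under 50 kb made up 25.1% and 26.1% of X gaps, more than on any autosome in either list, where their highest shares were 15.8% and 15.7%, both on chromosome V.

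**Figure D1:**
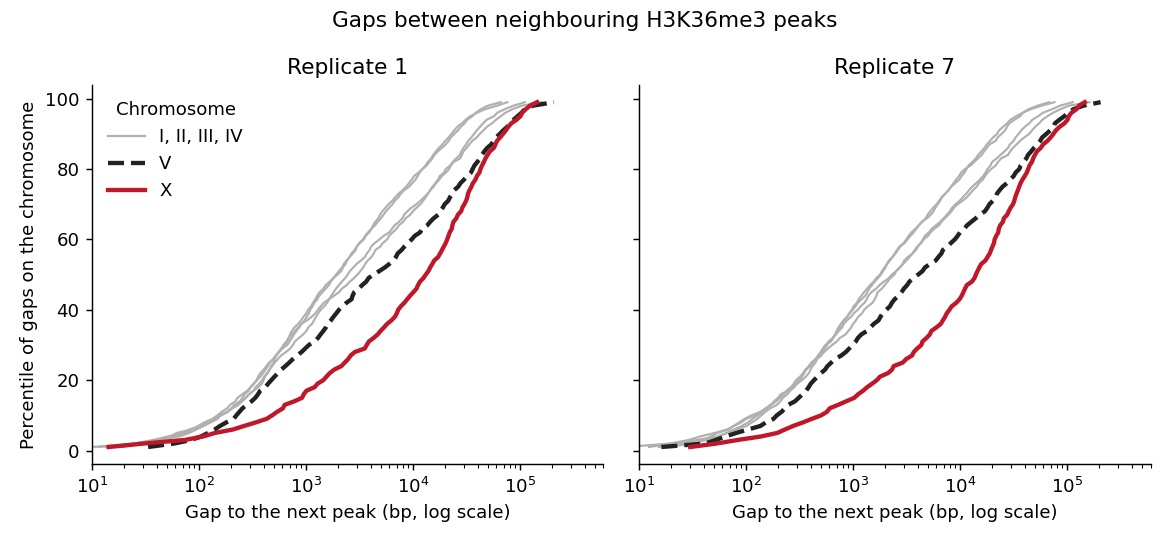
Gaps between neighbouring peaks on each chromosome, in bp on a log axis, against their percentile, for replicate 1 (left) and replicate 7 (right). The red curve of the X lies to the right of the autosomes over most of its range, with a median gap of 13123 bp and 13995 bp, and meets the dashed curve of chromosome V among the longest gaps.

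Relative to their mean, the gaps of the X were also more alike in length. Their coefficient of variation, the SD over the mean, was 1.298 in replicate 1 and 1.29 in replicate 7. It ranged from 1.87 to 2.14 and from 1.92 to 2.08 on the autosomes. The median gap was 0.513 of the mean gap in replicate 1 and 0.524 in replicate 7 on the X, and between 0.167 and 0.248 of it on the autosomes in both lists. Both measures are relative to the mean gap, but they are not free of the number of peaks: with the upper 50% of peaks by score the coefficient of variation fell to 1.13 and 1.12 on the X, to 1.69 and 1.84 on chromosome V, and to 1.53 at the lowest and 1.89 at the highest over all autosomes in both lists. The median gap and its coefficient of variation kept the X outside the autosome range in both lists with this upper 50%. They also did so after peaks within 500 bp of each other were joined. The 50% was taken over the whole list, not for each chromosome. The median X score was below that of every autosome in replicate 1 (614 against 741 to 1099). In replicate 7 it was within their range (599 against 573 to 748). Where X peaks score lower, the cut thins the X more and lengthens its gaps by construction.

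Clusters of peaks were few and small. A cluster was taken as a run of at least 5 peaks in which each gap was at most 5 kb. In replicate 1 the X had 7 clusters with 35 peaks, 5.59% of its peaks, where the share over all chromosomes was 32.8%. In replicate 7 it had 3 clusters with 16 peaks, 2.67% of its peaks, where the share over all chromosomes was 36.9%. The longest run on the X had 5 peaks in replicate 1 and 6 in replicate 7. The longest runs of the autosomes had 11 to 26 peaks in replicate 1 and 13 to 27 in replicate 7.

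Peaks with no neighbour within 5 kb were the largest class on the X, at 43.1% in replicate 1 (270 peaks) and 45.1% in replicate 7 (270 peaks). Runs of 2 held 30.0% and 32.7% of its peaks, and runs of 3 or 4 held 21.2% and 19.5%. On chromosome V, the autosome with most such lone peaks, their share was 24.4% and 23.1%.

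**Figure D2:**
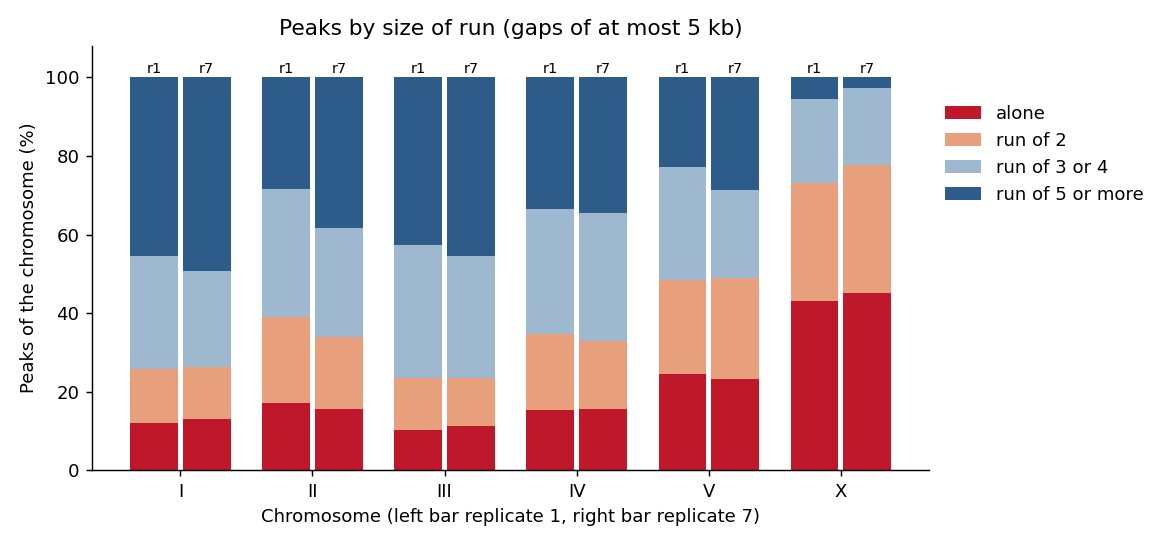
Share of each chromosome's peaks (%) that were alone or in runs of 2, of 3 or 4, or of 5 or more, with gaps of at most 5 kb inside a run; the left bar of each pair is replicate 1 and the right bar replicate 7. On the X 43.1% and 45.1% of peaks were alone and 5.59% and 2.67% were in runs of 5 or more.

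A stricter class of isolated peaks, at least 20 kb from the next peak on both sides, was defined after the gaps had been seen. It held 114 X peaks in replicate 1 (18.2%, against 5.06% over all chromosomes) and 105 in replicate 7 (17.5%, against 4.68%). On the autosomes the share ran from 1.27 to 8.38% in replicate 1 and from 0.985 to 8.87% in replicate 7. Of the isolated peaks, 100 of 114 in replicate 1 and 98 of 105 in replicate 7 overlapped a peak of the other list. Both shares lay below the 91.9% and 94.5% of all X peaks, and below the 89.6% and 94.8% over all chromosomes. In each list 82 isolated peaks matched a peak that was isolated there too. Isolated X peaks had a median width of 2222 bp in replicate 1, where the other X peaks had 2106.5 bp, and of 2483 bp in replicate 7, where the others had 2186.5 bp. Their median score was below that of the other X peaks in replicate 1 (479 against 634) and above it in replicate 7 (658 against 594).

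Several clusters lay near the left end. Of the 7 clusters of replicate 1, 5 lay within the left 14% of the X, and 2 of the 3 of replicate 7 lay there, a limit set after seeing their positions. Of all X peaks, 17.1% in replicate 1 and 17.4% in replicate 7 lay there. A cluster was found in both lists at 2 places. The first spanned 14.9 kb in replicate 1 (1439042 to 1453988, 5 peaks) and 15.0 kb in replicate 7 (1439050 to 1454097, 6 peaks). The second spanned 15.1 kb (15601142 to 15616255) and 15.0 kb (15601256 to 15616290), with 5 peaks in each. Inside these clusters peaks covered 66.1% and 72.2% of the first and 73.1% and 77.1% of the second. The other 5 clusters of replicate 1 had 3 or 4 peaks in replicate 7, which covered 40.7 to 80.0% of their length, so that they fell short of 5 peaks without being empty.

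Chromosome V was the autosome nearest to the X in cover and in the number of peaks, and its peaks were spaced differently. It had 39.9 and 41.0 peaks per Mb and mean gaps of 22260 and 21796 bp in replicates 1 and 7, near the 25559 and 26697 bp of the X. Its median gap of 4242 and 4043 bp was shorter than that of the X, which was 3.09 times as long in replicate 1 and 3.46 times in replicate 7. Peaks per window of 100 kb varied less on the X: the variance over the mean of these counts was 1.35 and 1.31 there, and 2.59 and 2.88 on chromosome V. Windows in which no peak had its midpoint numbered 7 and 9 of 176 on the X, and 32 and 30 of 209 on chromosome V.

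In the median gap, the difference from chromosome V was larger for its arms than for its centre. The centre is the middle 50% of a chromosome and the arms are the outer 25% on each side. Within the arms of chromosome V the median gap was 3096.5 bp (left) and 1786 bp (right) in replicate 1, and 2206 and 2272.5 bp in replicate 7. In its centre it was 7694 and 7604 bp. By cover the arms of chromosome V were nearer to the X, which had 9.12% and 9.17%. They had 9.66% (left) and 8.99% (right) in replicate 1, and 9.20% and 7.40% in replicate 7. The centre of chromosome V had 13.0% in both lists. On the X the shortest median gaps were those of the left arm, at 10409 bp in replicate 1 and 10585 bp in replicate 7. The right arm had 12877 and 13171.5 bp and the centre 14800 and 17193 bp. The median gap of the whole X was 1.71 times that of the chromosome V centre in replicate 1 and 1.84 times in replicate 7. The coefficient of variation of the gaps was 1.41 and 1.47 in the chromosome V centre and 1.44 and 1.39 in the left arm of the X, which were not separated by that measure. It was lower in the X centre, at 1.26 and 1.25, and in the X right arm, at 1.25 and 1.29, than in the centre of chromosome V.

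The arms and the centre of the X had much the same cover. The left arm had 9.38% ± 0.0995 (SD, n = 2) of its length under peaks, the centre 8.86% ± 0.0228 and the right arm 9.48% ± 0.00273. The left 50% of the X, up to 8812926, had 9.37% and 9.46% in replicates 1 and 7, and the right 50% had 8.87% and 8.89%. Among the 35 full windows of 500 kb the mean cover of the replicates ran from 4.16 to 16.1%, with a median of 9.17%. Their coefficient of variation was 0.321, inside the autosome range of 0.259 to 0.455. No window of that size was without peaks. The replicates followed each other closely along these windows, with correlations of 0.99 (Pearson's r) and 0.99 (Spearman's rho) as a description, and they differed by at most 1.14 percentage points.

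By the mean of the replicates, the windows with most cover were 4.5 to 5 Mb, at 16.1% in replicate 1 and 16.2% in replicate 7, 14.5 to 15 Mb, at 14.6% and 15.7%, and 0.5 to 1 Mb, at 13.7% and 13.8%. In replicate 1 alone the window from 0 to 0.5 Mb, at 13.8%, came before the last of these. Those with least were 3.5 to 4 Mb, at 4.05% and 4.27%, 12 to 12.5 Mb, at 4.55% and 3.98%, and 13 to 13.5 Mb, at 4.52% and 4.38%. Of these low windows, the one from 3.5 to 4 Mb lies 500 kb before the high window from 4.5 to 5 Mb. The high value at 4.5 to 5 Mb rested on wide peaks. Without the peaks over 10 kb its mean cover was 10.5%, the 10th of the 35 windows, and the 2 windows of the left end came first, at 13.7% (0.5 to 1 Mb) and 13.3% (0 to 0.5 Mb).

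**Figure D3:**
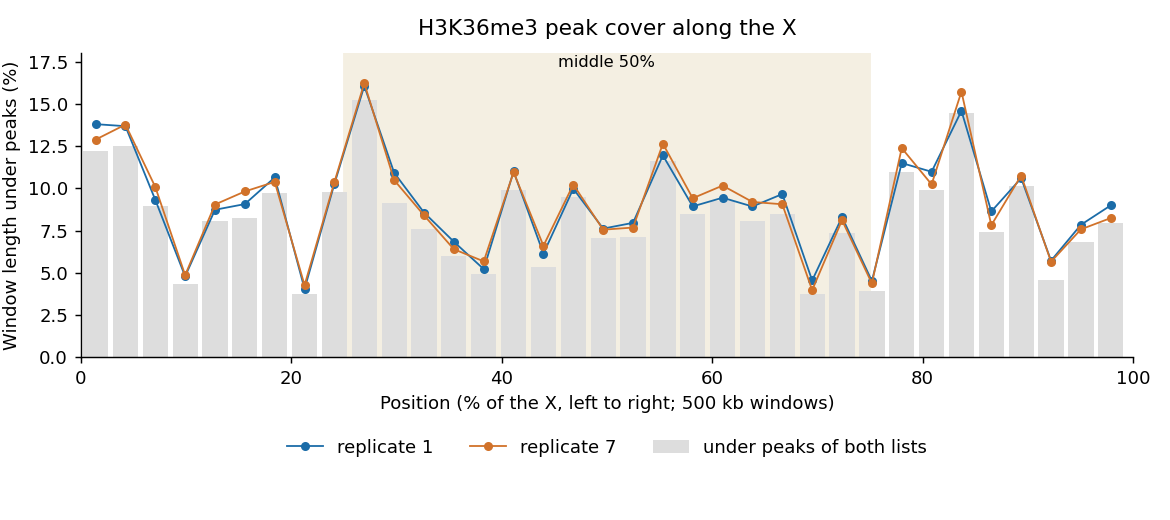
Share of each full 500 kb window of the X under peaks (%), against the position of the window as a percentage of the X from left to right; lines show replicates 1 and 7 and grey bars the bases under peaks of both lists. The replicate values run from 3.98% to 16.2%, the replicates stay within 1.14 percentage points of each other, and the left end is above the median in both.

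The left end of the X had more of its length under peaks than the rest of the chromosome. Its first 1 Mb had 61 peaks and 13.7% cover in replicate 1, and 56 peaks and 13.3% cover in replicate 7. This was 1.55 and 1.49 times the cover of the remainder of the X, a mean ratio of 1.52 ± 0.0424 (SD, n = 2). The ratio was 1.26 with only the upper 50% of peaks by score, so that part of it lay in weaker peaks. The last 1 Mb had 34 and 32 peaks and 8.42% and 8.49% cover. The first 1 Mb of chromosome V, the lowest of the autosomes at that end, had 13.9% and 12.7%. The last 1 Mb of chromosome V had 15.8% and 14.1%, where that chromosome as a whole had 11.2% and 10.7%. Higher cover at an end was thus not particular to the X. The first peak of the X began at 43838 in replicate 1 and 43846 in replicate 7, and the last ended at 17625852 and 17625851. With the X cut into 10 equal parts, cover was highest in part 9 from the left, at 11.97% in replicate 1 and 12.03% in replicate 7, followed by part 1, at 10.95% and 10.9%. It was lowest in part 4, at 6.94% and 6.88%.

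Peaks wider than 10 kb numbered 5 in each list, and they were the same 5 places. The widest covered 4834576 to 4852961 in replicate 1 (18.4 kb) and 4834588 to 4853053 in replicate 7 (18.5 kb). A second wide peak, 4595755 to 4605768 (10.0 kb in both lists), lay in the same 500 kb window. The others were 9810162 to 9822320 (12.2 kb in both), 11522553 to 11533276 (10.7 and 10.9 kb) and 14611223 to 14624316 (13.1 and 13.2 kb), given as in replicate 1. Each matched 1 peak of the other list, and their starts and ends differed between replicates by 12 to 92 bp. Together these peaks covered 64.4 kb in replicate 1 and 64.7 kb in replicate 7. The next widest X peak had 9.62 kb in replicate 1 and 9.81 kb in replicate 7.

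The authors' score piled up at 3100, the value of 47 X peaks in replicate 1 and 56 in replicate 7. Higher scores, of up to 3226 and 3193, were given to 6 and 3 X peaks, and the files do not say whether these rank above the tied ones. On the X 8.47% and 9.85% of peaks reached 3100 or more, a smaller share than on any autosome, where it ran from 12.8 to 21.5% in replicate 1 and from 11.2 to 16.0% in replicate 7. The highest-scoring X peaks of replicate 1 were 13965431 to 13968719, 13522577 to 13525712 and 14480532 to 14484712, with scores of 3226, 3225 and 3171. Those of replicate 7 were 10549612 to 10555012, 5112639 to 5116185 and 5234794 to 5242719, with scores of 3193, 3144 and 3136. All 6 overlapped a peak of the other list over at least 89.7% of their length. At 5112639 to 5116185 the matching peak of replicate 1 scored 1452, and the other 5 partners scored between 2950 and 3100. The third peak of replicate 1 bordered a stretch of 127876 bp with no peak.

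Close to 50% of the X lay in stretches of at least 50 kb without a peak. In replicate 1 there were 100 such stretches with 49.997% of the X, and in replicate 7 there were 95 with 50.1%, a mean of 50.04% ± 0.0658 (SD, n = 2). Up to the last peak end, beyond which nothing was counted, 94 stretches were free of peaks in both lists. They held 8.25 Mb, which is 46.8% of the X. That share was larger than on chromosomes I, II, III and IV (12.9 to 40.7%) and smaller than on chromosome V (54.2%). The number of stretches per Mb was 5.33 on the X and 5.41 on chromosome V, but the longest differed, at 223 kb and 547 kb. Stretches of at least 100 kb without a peak in either list held 21.9% of the X and 27.6% of chromosome V.

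The 5 longest stretches of the X without a peak in either list were 12171582 to 12394229 (223 kb), 8914172 to 9104981 (191 kb), 15868625 to 16034797 (166 kb), 2944724 to 3090331 (146 kb) and 1617478 to 1762855 (145 kb). They lay in all 3 zones of the chromosome, at 69.7%, 51.1%, 90.5%, 17.1% and 9.59% of its length. Stretches made up 42.6% of the left arm, 47.2% of the centre and 50.2% of the right arm. A stretch of this kind is one in which nothing passed the authors' threshold, and weaker signal cannot be seen in a peak list. Most stretches of a list were empty in the other: 84 of 100 in replicate 1 and 77 of 95 in replicate 7. The remaining 16 and 18 held 17 and 21 peaks of the other list.

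**Figure D4:**
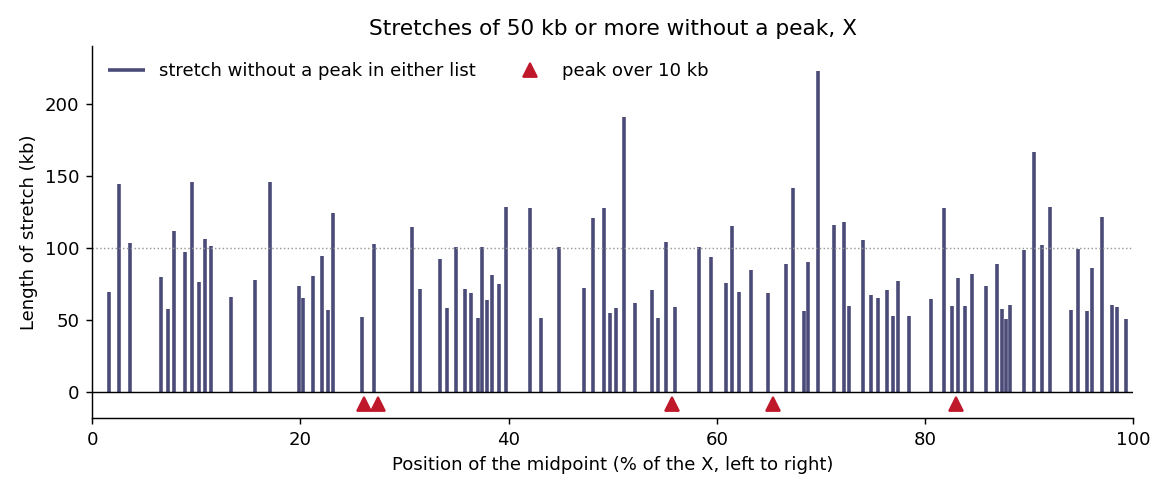
Length in kb of each of the 94 stretches of at least 50 kb without a peak in either list, at its midpoint as a percentage of the X; triangles mark the 5 peaks over 10 kb and the dotted line is at 100 kb. Stretches occur from end to end, and the longest, of 223 kb, is at 69.7%.

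The replicates marked nearly the same places on the X. Of the replicate 1 peaks, 575 of 626 (91.9%, exact Clopper-Pearson 95% interval 89.4 to 93.9%) shared at least 1 bp with a replicate 7 peak, against 89.6% over all chromosomes. Of the replicate 7 peaks, 566 of 599 (94.5%, 92.3 to 96.2%) shared bases with replicate 1, against 94.8% over all chromosomes. These shares are near the background, and the intervals cover counting error only. Bases under peaks of both lists came to 1.47 Mb, or 8.34% of the X, in 593 segments with a median length of 2048 bp. They were 91.5% of the replicate 1 cover and 90.96% of the replicate 7 cover, and 83.9% of the bases covered in either list, where the autosomes ran from 79.5 to 84.2%.

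Peak edges differed by less than the width of a typical peak in most pairs. In 504 places 1 peak matched 1 peak. These pairs held 80.5% of the X peaks of replicate 1, where the autosomes had 66.4 to 72.3%. Their starts differed by a median of 87 bp and their ends by a median of 102 bp, and 90% of all edges differed by at most 385 bp. The autosomes were near this. The median over all edges was 94 bp on the X and 88 to 99.5 bp on the autosomes, where 90% of edges differed by at most 391 to 482 bp. Both edges lay within 100 bp of each other in 148 pairs (29.4%), and in 15 pairs an edge moved by more than 1 kb. The scores of these pairs had a Spearman's rho of 0.93, and of 0.90 among the 434 pairs below 3100 in both lists. These are descriptions across peaks, not over samples. A score of 3100 or more was reached in both lists by 39 pairs, in replicate 1 alone by 12 and in replicate 7 alone by 19.

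**Figure D5:**
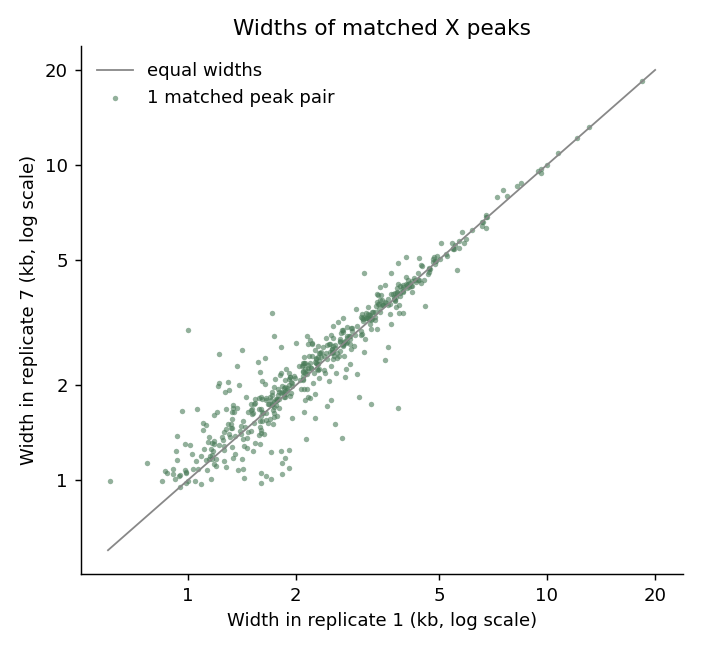
Width in kb in replicate 1 against width in replicate 7, both on log axes, for the 504 X peaks that match 1 to 1; the line marks equal widths. The points follow the line most closely above 5 kb, and 329 of the 504 lie above it.

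Peaks found in 1 list alone were narrow and scored low. The median width of the 51 in replicate 1 was 1078 bp and their median score 93.5, where its shared X peaks had 2225 bp and 700. The 33 of replicate 7 had 1082 bp and 70.7, where its shared X peaks had 2333.5 bp and 661. The highest score among them was 315 in replicate 1, at 16356228 to 16359414, and 273 in replicate 7, at 7631731 to 7633580. These regions lay 11370 and 23818 bp from the nearest peak of the other list. The next in replicate 1 were 12665476 to 12667407 and 11708022 to 11709286, with scores of 262 and 226, and in replicate 7 they were 11057839 to 11059205 and 7294415 to 7295630, with 184 and 181. Few unmatched peaks flanked a peak of the other list. Within 1 kb of one lay 9 of 51 and 5 of 33, and at least 20 kb away lay 15 and 8. In the upper 60% of X peaks by score all peaks were matched, 375 of 375 in replicate 1 and 359 of 359 in replicate 7. In the lowest 20% the matched share was 66.7% (84 of 126) and 75.8% (91 of 120). Matching by score was not computed for the autosomes, so it cannot be called particular to the X. Unmatched peaks held 3.84% and 2.37% of the X cover in replicates 1 and 7. Both values were within the autosome ranges, of 2.53 to 4.98% and 2.03 to 3.74%.

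How the lists cut the same region into peaks differed between the X and the autosomes. On the X 19 replicate 1 peaks (3.04%) overlapped 2 or more replicate 7 peaks, and 26 replicate 7 peaks (4.34%) overlapped 2 or more of replicate 1. On each autosome the order was the other way, where 9.70 to 13.1% of the peaks in replicate 1 were so divided, and 3.85 to 5.56% of those in replicate 7. Matched X peaks were slightly wider in replicate 7, with a median width ratio of 1.03 (quartiles 0.981 and 1.10) and 329 of 504 pairs (65.3%) wider there. The median ratio on the autosomes ran from 0.995 to 1.01, with 48.0 to 54.8% of pairs wider in replicate 7. This sets 1 library beside another, so the difference between chromosomes was not tested over samples.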

How the data were processed

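The authors deposited 1 peak list for each immunoprecipitation, with a start, an end and a score per peak, and the lists were not pooled. Per the file headers, coordinates are in WormBase WS190. The peak names carry MACS, while the source column reads MA2C, and which of these programs called the peaks is unknown. The submitters' processing notes name the aligner BWA. For versions and settings, the sources used here give nothing. The deposited score has no stated definition and was used within a list, apart from the scores of matched peaks. The inputs entered only through the authors' peak calling.

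Chromosome length was the last peak end in either list, so unmarked sequence beyond it is left out of cover, right ends and stretches. Gaps were counted between the end of a peak and the next start. Overlap needed 1 bp. Ties in score were broken by width. The members, cluster rule and lists were chosen with earlier results of these data known. Named regions are the 3 highest-scoring, 3 widest and 3 highest-scoring unmatched X peaks of each list, all X peaks over 10 kb, clusters, the 5 longest stretches, the peaks at both ends, and the 3 windows of highest and of lowest cover. Of the clusters, all of which had 5 or 6 peaks, those found in both lists are named. The isolated class, gap variation, the left end, the setting against chromosome V and the split and width comparison were added after seeing the data. No test of a condition is possible with 1 group of 2 samples. Alternatives were the upper 50% of peaks by score over the whole list, joining within 500 bp, other overlap, cluster, stretch and centre limits, and each replicate alone. Python 3.11.15, numpy 2.4.6, pandas 2.3.3, scipy 1.17.1 and matplotlib 3.10.9 were used. The interval code was tested on 50 pairs of simulated lists, with 0 differences from a base-by-base count.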

Additional observations from a re-analysis of the deposited data

How the results depend on the processing

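With the upper 50% of peaks by score, X cover was 5.95%, with 5.71% in the left arm, 5.90% in the centre and 6.29% in the right arm. The median width was 3349 bp, the median gap 37255 bp, its coefficient of variation 1.13 and its ratio to chromosome V 1.895. Clusters held 0% of peaks, stretches 77.5% of the X, isolated peaks 43.9%, and the left-end ratio was 1.26. Matched X peaks were 95.8% of replicate 1 and 85.2% of replicate 7, and shared bases 89.8%. Both lists were cut here, so a peak could lose its partner to the cut. The matched share over all chromosomes was not computed at this setting. Joining within 500 bp gave X cover of 9.22% (left arm 9.51%, centre 8.91%, right arm 9.54%), a median width of 2475 bp, a median gap of 17586 bp with a coefficient of 1.18 and a ratio of 1.81, 0% in clusters and 21.7% isolated. With the middle 40% as centre the arms had 10.2% and 9.11% and the centre 8.38%, which puts the right arm below the left.

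The share in clusters was 1.23% with gaps of at most 2 kb, 11.1% with 10 kb and 24.5% with at least 3 peaks, so it follows from the definition. Stretches of at least 100 kb, taken in each list on its own, held 25.5%, isolation by 10 kb held 31.4%, the ratio to the centre of chromosome V alone was 1.77, and the left-end ratio without peaks over 10 kb was 1.59. Reciprocal 50% overlap matched 85.1% and 88.98% of X peaks, a share not computed over all chromosomes. Settings that change the number of peaks change gaps by construction. Dropping peaks also changes stretches, whereas joining within 500 bp left them at 50.04% of the X. The cause of the other shifts was not tested.

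Of 46 alternatives, 37 moved a value by more than its SD or interval, and 9 were counted as unmoved. These 9 include the alternatives for the width ratio of matched peaks, judged only by whether it fell below 1. None turned a ratio below 1. Each replicate alone gave 9.12 to 9.17% cover, a median gap of 13123 to 13995 bp and 2.67 to 5.59% of peaks in clusters; with 2 replicates these values say nothing about stability. In both lists the X kept the longest median gap and lowest coefficient of variation of the 6 chromosomes. It also kept the most isolated and the fewest clustered peaks. This held in the lists as deposited, in the upper 50% by score and after joining. The upper 50% was cut over the whole list, so chromosomes need not lose equal shares of their peaks. Overlap and shared bases need both lists and have no value without either replicate. No paired analysis was possible because the 2 peak lists belong to a single group and no input values were used. Depth is unknown, and signal under the authors' threshold cannot be compared.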

Other observations

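Of 4 classes of X peaks by distance to the nearest neighbour, the closest had the lowest median width in both lists. X peaks within 1 kb of another peak of their list had a median width of 1866 bp in replicate 1 (189 peaks) and 1853 bp in replicate 7 (162 peaks). Those whose nearest neighbour was over 10 and up to 20 kb away had 2679.5 bp (80 peaks) and 2641.5 bp (86 peaks). Width did not rise steadily with distance: the class over 1 and up to 10 kb had 2170 and 2321 bp, and the class over 20 kb had 2222 and 2483 bp. On chromosome V the medians of the class within 1 kb and the class over 10 and up to 20 kb were 2311 and 2193.5 bp in replicate 1. They were 2019 and 2315 bp in replicate 7, so the order of these classes differed between lists. The class over 20 kb had the lowest median width there in both lists, at 1910 and 1997.5 bp. X peaks within 1 kb of another made up 30.2% and 27.0% of X peaks, and such peaks were 50.3% and 50.2% of those on chromosome V. These classes were chosen after the data had been seen and were not tested.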
